A study of Mus musculus with 30 samples.

Results

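The comparison described here is that of colon RNA from 6 female and 6 male C57BL/6J mice on a control diet (CD), restricted to the genes of chromosomes 1 to 19. Its members are 41492 of the 46078 genes in the count table. Genes on X and Y, mitochondrial genes and genes on unplaced sequence were left out. Of the members, 14436 passed the filter on low counts and were tested. The 12 libraries belong to a series of 30, in which the other groups of 6 are females and males on a high-fat diet (HFD) and HFD males given estradiol (E2). All mice were on their diet for 13 weeks and received 9 intraperitoneal injections toward its end, of vehicle in every group except the E2 group. The females were not ovariectomized, and the labels name no transgene or other allele. They were 5 to 6 weeks old when they entered the study and lived under a regular light-dark cycle. The authors state that all mice were killed at the same time of day and that the cycle of the females was not followed. The clock hour is not given in the sources used here.

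Each mouse gave 1 ribosome-depleted library from frozen colon. Counts on genes ranged from 9229178 to 12013850 per CD female and from 10283312 to 14926918 per CD male, and the autosomal genes held 6272602 to 8189280 and 6623315 to 9214444 of them. Mitochondrial genes took 28.4% to 35.5% of the counts in females and 31.9% to 36.4% in males. The sex of the animals matched the labels in all 12 libraries. Ddx3y, on the Y chromosome, had 0 to 1 counts in females and 724 to 1268 in males, and Xist had 16122 to 18089 counts in females and 4 to 16 in males. The tissue label also fitted the markers. Keratin Krt8 of the simple epithelium was at 884 TPM (a level that takes gene length and library size into account) or more in each mouse, with a median of 1118 TPM in females and 1341 TPM in males. Hoxb13, a homeobox gene of the hindgut, had medians of 119 and 122 TPM. The small intestinal markers Fabp6 and Rbp2 reached at most 10.7 and 15.4 TPM in any CD mouse. None of the 9 autosomal genes of the male accessory glands that were measured passed the filter on low counts.

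The colon is a wall of crypt epithelium, a lamina propria rich in fibroblasts, immune cells and vessels, and layers of smooth muscle, all of which contribute to RNA from whole tissue. Its cells run a circadian clock, in which the activators Bmal1 (encoded by Arntl), Clock and Npas2 drive the genes of their own repressors, the Per, Cry and Rev-erb (Nr1d1, Nr1d2) proteins. The clock passes time on through the PAR bZIP factors Dbp, Tef and Hlf and their antagonist Nfil3. Estrogens act through the receptors encoded by Esr1, Esr2 and Gper1, and the enzymes that conjugate or convert steroids set how much active hormone a tissue holds. In such bulk RNA, fewer cells of a type and less RNA per cell cannot be told apart.

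Between CD females and CD males, 388 autosomal genes were differentially expressed (DEGs), 92 higher and 296 lower in females. This was 2.69% of those tested, 0.637% higher and 2.05% lower. A DEG had an adjusted p under 0.05 in edgeR's quasi-likelihood test with Benjamini-Hochberg adjustment and a log2 fold change above 0.4 or below -0.4. The median log2 fold change of all autosomal genes tested was 0.01, a value that the scaling between libraries sets near 0. At an unadjusted p under 0.05 with the same fold change, 1312 genes passed (9.09%), 418 higher (2.9%) and 894 lower (6.19%). The DEGs lay on all 19 autosomes, from 1.59% of the genes tested on chromosome 17 to 4.06% on chromosome 3. In 297 genes tested (2.06%), the 6 females and the 6 males did not overlap in log2 CPM (counts scaled to library size), and 211 of these were DEGs. The number of DEGs was 245 without CD female 6, and 217, 251 and 247 without CD male 3, 4 and 5, and it rose to 616 without CD male 1. With all 12 of these refits, in each of which 1 library was left out, 181 genes were called throughout, 36 higher and 145 lower. Of the 85 DEGs chosen by the rule for named genes, 52 were called in all 12 refits. The others were lost in some of them, and those called in 5 or fewer included Npas2, Stc2, Egf, Ccnd1, Igfbp2, Adamts2, Adamts5, Rspo3, Bmp1, Gli2, Lgr5, Saa1, Marveld2, Cldn4, Fcgbp, Kit, Lyve1, Kcnj8 and Notch3. The loss was 29 of the 85 without CD male 3, 25 without CD female 6 and 4 without CD male 1.

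The levels of smooth muscle and B cell markers are given first, since the count of DEGs depended on whether they were in the model. The 18 genes of smooth muscle summed to 4262 to 6325 TPM in females and to 6435 to 10466 TPM in males, without overlap. The 13 genes of B cells summed to 17.8 to 85.0 TPM in females. In males they summed to 1.85 to 12.4 TPM in 5 mice and to 66.5 TPM in CD male 1, which lies within the range of the females, and none of the 13 was called. With a score of the smooth muscle genes as a covariate, 196 autosomal genes were called, 113 higher and 83 lower, and 32 of them were among the 388. With a score of the B cell genes, 30 genes were called, of which 29 were among the 388. All 388 kept their sign with the B cell score and 374 kept it with the smooth muscle score. Whether either cell type underlies a given gene was not tested.

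The largest autosomal difference was that of Sult1e1, which encodes the sulfotransferase that inactivates estrogens (chr5:87575969-87591594, GRCm38, minus strand). It had 0 counts in all 6 CD females and 15 to 84 counts in each CD male, where its level was 1.42 to 6.04 TPM with a median of 3.04 TPM. Against a floor of 3 counts over the female group, the 235 counts of the males made it at least 69.4-fold lower in females (adjusted p = 0.000595). The same held on HFD, in libraries that the CD comparison does not share, with 0 counts in 6 females and 205 over the 6 males, at least 68.7-fold lower. C7, a component of the membrane attack complex of complement (chr15:4988762-5063773, minus strand), came next. Its level was 0 to 0.609 TPM in females, with a median of 0.0707 TPM, and 9.56 to 22.5 TPM in males, with a median of 13.8 TPM. The log2 fold change was -5.03 (SE 0.28, adjusted p = 1.61e-08) on CD and -4.68 (SE 0.35, adjusted p = 3.26e-06) on HFD. For both genes every male lay far above every female, on either diet.

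Among DEGs with at least 1 TPM in either sex and no overlap of the sexes, the 12 with the largest increase in CD females included Tph1, Insl5, Hao2, Slc40a1 and Mptx1. Tph1, the enzyme that commits tryptophan to serotonin in enterochromaffin cells, ranged from 5.01 to 12.4 TPM (median 7.65) in females and from 0.867 to 5.57 TPM (median 2.97) in males, a log2 fold change of 1.54 (SE 0.25, adjusted p = 0.00403). Insl5, a peptide hormone of colonic L cells, ranged from 14.4 to 35.8 TPM (median 21.4) in females and from 4.39 to 14.3 TPM (median 9.15) in males, a log2 fold change of 1.37 (SE 0.22, adjusted p = 0.00291). Hao2, a peroxisomal hydroxy acid oxidase, had the smallest p-value of these increases. Its level was 75.7 to 129 TPM (median 123) in females and 41.4 to 67.2 TPM (median 45.5) in males, a log2 fold change of 1.26 (SE 0.10, adjusted p = 2.62e-06). Slc40a1, which encodes ferroportin, the exporter of iron from cells, rose by 1.04 (SE 0.15, adjusted p = 0.0016) on the log2 scale. The value was 0.66 (adjusted p = 0.114) with the smooth muscle score as a covariate and 0.99 (adjusted p = 0.0558) with the B cell score. Mptx1, a pentraxin, was by far the most abundant of the 12, at 698 to 1398 TPM in females and 382 to 691 TPM in males, with a log2 fold change of 1.15 (adjusted p = 0.00403). It has a close relative in Mptx2, and reads may have been split between them. The rest were the clock output factor Nfil3, Oaz3 (an antizyme), Foxd2 (a forkhead factor), Kcnh6 (a potassium channel), Tpsg1 (a transmembrane tryptase), Traf1 (an adaptor of TNF receptors) and Chst4 (a sulfotransferase of mucin-type glycans), with log2 fold changes between 0.95 and 1.64. Of the 12, Hao2 was called with both marker scores as covariates, Nfil3 and Mptx1 with the smooth muscle score alone, and the others with neither. Tpsg1 overlaps Cacna1h on the other strand.

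The 12 largest decreases by the same choice included Sult1e1, C7 and the clock repressor Ciart. Mybpc1, a myosin binding protein, ranged from 0.138 to 4.03 TPM (median 2.29) in females and from 4.97 to 12.8 TPM (median 10.1) in males, a log2 fold change of -2.28 (SE 0.30, adjusted p = 0.000854). It was -1.33 (adjusted p = 0.058) with the smooth muscle score as a covariate and -1.59 (adjusted p = 0.00148) with the B cell score. Inmt, a methyltransferase of indole amines, ranged from 1.44 to 8.17 TPM (median 4.14) in females and from 12.5 to 25.1 TPM (median 14.5) in males, a log2 fold change of -1.82 (SE 0.29, adjusted p = 0.00411). Slc10a2, the apical sodium-dependent bile acid transporter, ranged from 0.957 to 4.17 TPM (median 2.30) in females and from 3.57 to 8.51 TPM (median 5.82) in males, a log2 fold change of -1.29 (SE 0.28, adjusted p = 0.0176). The others were Ms4a10, Galnt16 (a glycosyltransferase that starts O-glycans), Gp49a (an immunoglobulin-like receptor with a near-identical neighbor, Lilrb4), Car14 (a carbonic anhydrase), Gm10522 and 9130204K15Rik, with log2 fold changes between -1.34 and -2.09. Inmt, Slc10a2, Gp49a, Car14 and Gm10522 were called with neither marker score as a covariate, while Ms4a10, Galnt16 and 9130204K15Rik were called with both. The mean of 9130204K15Rik in males rested partly on CD male 1, at 11.4 TPM against 1.85 to 2.36 TPM in the other 5. Car14 overlaps the more abundant Aph1a on the other strand, and the strand setting of the counting is not given in the sources used here.

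**Figure D1:**
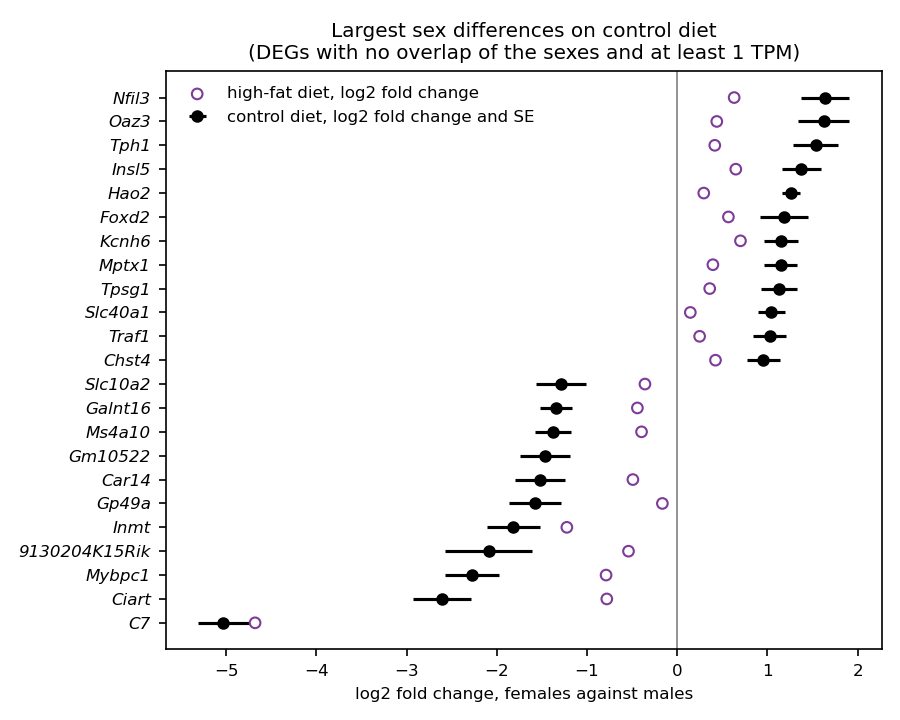
Log2 fold change of females against males (x axis) for 23 of the 24 autosomal DEGs with the largest differences on CD among those with no overlap of the sexes and at least 1 TPM in either sex (y axis), black points with the standard error, n = 6 mice per sex; open circles give the same contrast in the HFD mice, where Gm10522 was not tested. Sult1e1, with 0 counts in females, has no finite ratio and is not drawn. C7 lies near -5 on both diets, and the other circles lie nearer to 0 than the black points.

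The clock genes were described in the order of their roles. In several of these genes, such as Nr1d1 and Dbp, CD female 4 stood apart from the other 5 females. Its level lay within the range of the males for Nr1d1 (53.5 TPM), Dbp (24.3 TPM), Tef (26.7 TPM), Per3 (14.96 TPM), Arntl (11.2 TPM), Npas2 (9.28 TPM) and Nfil3 (0.953 TPM). For Nr1d2 and Ciart every female lay below every male in TPM, with CD female 4 at 32.8 and 0.838 TPM. For Hlf CD female 1 (0.860 TPM) lay below every male, as did CD female 4 (0.772 TPM). CD female 4 was also below every male for Cry1 (2.14 TPM). Its counts of Xist and of the Y-linked genes were those of a female. Values without this mouse are therefore given for the genes called with or without it. It was singled out by its values in these same genes, so the p-values without it depend on that choice. A call gained only in that way is not counted among the DEGs.

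Of 6 clock activators, all tested, 2 were higher in CD females and none was lower, beside 0.637% of all genes called higher and 2.05% lower. Arntl (chr7:113207465-113314122, plus strand) ranged from 11.2 to 30.7 TPM in females, with a median of 22.4 TPM, and from 5.19 to 14.5 TPM in males, with a median of 12.1 TPM. Apart from CD female 4, every female exceeded every male. The log2 fold change was 1.16 (SE 0.25, adjusted p = 0.0254), and 1.29 (adjusted p = 0.0102) without CD female 4. Of the 12 fits with 1 library left out, 7 called Arntl. With the replicate number as a block, the value was 1.18 and Arntl was not called (adjusted p = 0.106). Npas2 ranged from 9.28 to 20.04 TPM (median 12.8) in females and from 6.13 to 11.2 TPM (median 6.74) in males, a log2 fold change of 0.80 (SE 0.21, adjusted p = 0.0490). This call was at the edge of the threshold, with a log2 fold change of 0.85 (adjusted p = 0.0583) without CD female 4, and 2 of the 12 fits with 1 library left out retained it. Clock itself, at medians of 58.8 and 62.8 TPM, had a log2 fold change of 0.13 (adjusted p = 0.424). The nuclear receptor genes Rora and Rorb, whose products activate Arntl, had log2 fold changes of -0.35 and 0.12 with adjusted p-values of 0.138 and 0.86.

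Promoters are shown for 4 clock genes in which a known clock motif was found, as the motifs link the roles described here. RefSeq promoters (250 bases before to 50 after the gene start, GRCm38.p6) were at hand for 17 of the 20 genes. Motifs were sought only in the 250 bases before the start. The E-box CACGTG, the motif of the Bmal1 and Clock pair, reads the same on both strands and was present in 5 of the 17 (Bhlhe41, Ciart, Cry1, Per1 and Tef), and in 6.02% of all 32851 promoters in the table. The D-box TTANGTAA, the motif of Dbp, Tef, Hlf and Nfil3, was found on either strand in Per3 and Rorb and in 2.06% of all promoters. The core TAGGTCA of the element that the Ror and Rev-erb receptors share was found in Nfil3 and in 2.23%. Capitals mark the E-box in the first 3 stretches and the D-box in the last. Each stretch ends before the first annotated exon base, and a match is only a run of letters. That of Ciart is chr3:95882252-95882478 (minus strand), where the matches begin 116, 58 and 44 bases before the gene start. The second start of Tef is preceded by chr15:81811164-81811413 (plus strand), with a match 138 bases before it. For Cry1 the stretch is chr10:85185065-85185304 (minus strand), with a match 60 bases before the start. For Per3 it is chr4:151044666-151044915 (minus strand), with matches 205 and 158 bases before the start.
Ciart: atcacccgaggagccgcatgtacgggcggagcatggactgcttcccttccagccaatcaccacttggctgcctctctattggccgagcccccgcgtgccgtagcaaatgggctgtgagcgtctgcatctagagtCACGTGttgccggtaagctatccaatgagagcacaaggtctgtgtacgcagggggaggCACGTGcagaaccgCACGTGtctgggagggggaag
Tef: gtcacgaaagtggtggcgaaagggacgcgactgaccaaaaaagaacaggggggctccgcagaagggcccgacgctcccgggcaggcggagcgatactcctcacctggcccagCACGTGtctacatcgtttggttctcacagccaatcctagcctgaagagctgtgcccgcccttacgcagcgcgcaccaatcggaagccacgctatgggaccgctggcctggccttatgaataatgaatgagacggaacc
Cry1: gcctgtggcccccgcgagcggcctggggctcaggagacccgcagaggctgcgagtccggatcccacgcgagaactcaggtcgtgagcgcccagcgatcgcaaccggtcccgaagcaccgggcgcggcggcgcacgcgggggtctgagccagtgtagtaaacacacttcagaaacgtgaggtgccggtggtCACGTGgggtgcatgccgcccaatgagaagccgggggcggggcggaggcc
Per3: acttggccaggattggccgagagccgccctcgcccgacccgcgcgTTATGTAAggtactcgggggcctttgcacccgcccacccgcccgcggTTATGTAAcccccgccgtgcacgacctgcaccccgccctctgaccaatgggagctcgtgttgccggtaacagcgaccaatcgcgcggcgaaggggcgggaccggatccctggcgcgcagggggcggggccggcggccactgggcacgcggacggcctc

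Of 10 clock repressors, all tested, 2 were lower in CD females and none was higher, beside 2.05% and 0.637% of all genes. Ciart, whose product binds and represses the Bmal1 and Clock pair and whose promoter holds the 3 E-boxes shown, had the largest difference of all clock genes. It had 3 to 14 counts in females and 26 to 63 in males, or 0.0539 to 0.838 TPM (median 0.346) against 1.49 to 4.25 TPM (median 3.24). No female reached the lowest male. The log2 fold change was -2.61 (SE 0.32, adjusted p = 0.000415), and -2.98 (adjusted p = 8.14e-05) without CD female 4. Nr1d2, which encodes Rev-erb beta, ranged from 12.5 to 32.8 TPM (median 18.2) in females and from 38.8 to 59.8 TPM (median 48.8) in males, with a log2 fold change of -1.03 (SE 0.22, adjusted p = 0.0217), and -1.28 (adjusted p = 0.000366) without CD female 4. In TPM the sexes did not overlap, with CD female 4 the highest female, and in log2 CPM CD female 4 reached the lowest males. With the replicate number as a block, the log2 fold change of Nr1d2 was -1.10 and Nr1d2 was not called (adjusted p = 0.0686).

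The remaining 8 repressors were not called with all 12 libraries. Nr1d1, which encodes Rev-erb alpha, ranged from 7.501 to 53.5 TPM (median 15.5) in females and from 39.2 to 59.5 TPM (median 47.0) in males. Its log2 fold change was -1.07 (SE 0.46, adjusted p = 0.301). Without CD female 4, the other 5 females lay at or under 22.4 TPM and the log2 fold change was -1.66 (adjusted p = 0.0235). Of the 12 fits with 1 library left out, only this 1 called Nr1d1. Per3 had medians of 8.71 TPM in females and 18.0 TPM in males, a log2 fold change of -0.87 (adjusted p = 0.0907), and -1.15 (adjusted p = 0.00557) without CD female 4. Cry1 had medians of 6.57 and 3.82 TPM, a log2 fold change of 0.73 (adjusted p = 0.15), and 0.89 (adjusted p = 0.0179) without that mouse. Per3 and Cry1, too, were called in no other fit with 1 library left out. Per1 (-0.31), Per2 (-0.18), Cry2 (-0.26), Bhlhe40 (0.04) and Bhlhe41 (-1.12) were not called with or without it. The levels of the 10 repressors summed to 103 to 188 TPM in females and to 196 to 246 TPM in males.

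Of the 4 output factors, Tef and Hlf were lower and Nfil3 was higher in CD females, beside 2.05% of all genes called lower and 0.637% higher. Tef ranged from 9.64 to 26.7 TPM (median 13.3) in females and from 25.1 to 44.1 TPM (median 37.7) in males, a log2 fold change of -1.25 (SE 0.22, adjusted p = 0.00686), and -1.50 (adjusted p = 0.000105) without CD female 4. Only CD female 4 reached into the range of the males. Hlf ranged from 0.772 to 2.02 TPM (median 1.57) in females and from 1.25 to 3.44 TPM (median 2.94) in males, a log2 fold change of -0.998 (SE 0.23, adjusted p = 0.0255), and -0.99 (adjusted p = 0.0535) without CD female 4. Of the 12 fits with 1 library left out, 8 called Hlf. Nfil3, the repressor that binds the same D-box, ran the other way. Its level was 0.953 to 2.78 TPM (median 2.18) in females and 0.284 to 0.990 TPM (median 0.777) in males, a log2 fold change of 1.64 (SE 0.27, adjusted p = 0.00383), and 1.77 (adjusted p = 0.0015) without CD female 4. Dbp, the fourth, ranged from 2.89 to 24.3 TPM (median 3.58) in females and from 19.5 to 33.6 TPM (median 23.2) in males. With CD female 4 its log2 fold change was -1.94 (SE 0.53, adjusted p = 0.0768), and without it -2.91 (adjusted p = 1.62e-05), since the other 5 females lay at 2.89 to 5.12 TPM. Dbp was among the genes by which that mouse was singled out, so the second p-value depends on that choice.

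Genes further from the core loop gave no calls. None of 6 clock kinases and ubiquitin ligases tested was called (median log2 fold change 0.07), and none of 9 genes commonly counted as clock outputs outside transcription (median 0.06). Slc16a1, the most abundant of the latter, had medians of 97.1 TPM in females and 97.0 TPM in males.

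Most of the clock calls were lost when a marker score was a covariate, while the log2 fold changes of the 7 genes kept their direction and, apart from that of Nr1d2, were larger in size. With the smooth muscle score, Ciart and Nfil3 (2.01, adjusted p = 0.0385) were called. The log2 fold change was 1.69 for Arntl (adjusted p = 0.0892), 1.22 for Npas2 (adjusted p = 0.0909), -0.88 for Nr1d2 (adjusted p = 0.231), -1.45 for Tef (adjusted p = 0.0793) and -1.31 for Hlf (adjusted p = 0.0596). With the B cell score, Ciart (-2.86, adjusted p = 0.00114) was the only one of these 7 genes called. The values of the others were 1.27 for Arntl, 0.91 for Npas2, 1.71 for Nfil3, -0.94 for Nr1d2, -1.30 for Tef and -1.05 for Hlf, with adjusted p-values from 0.0576 for Nfil3 to 0.278 for Npas2.

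**Figure D2:**
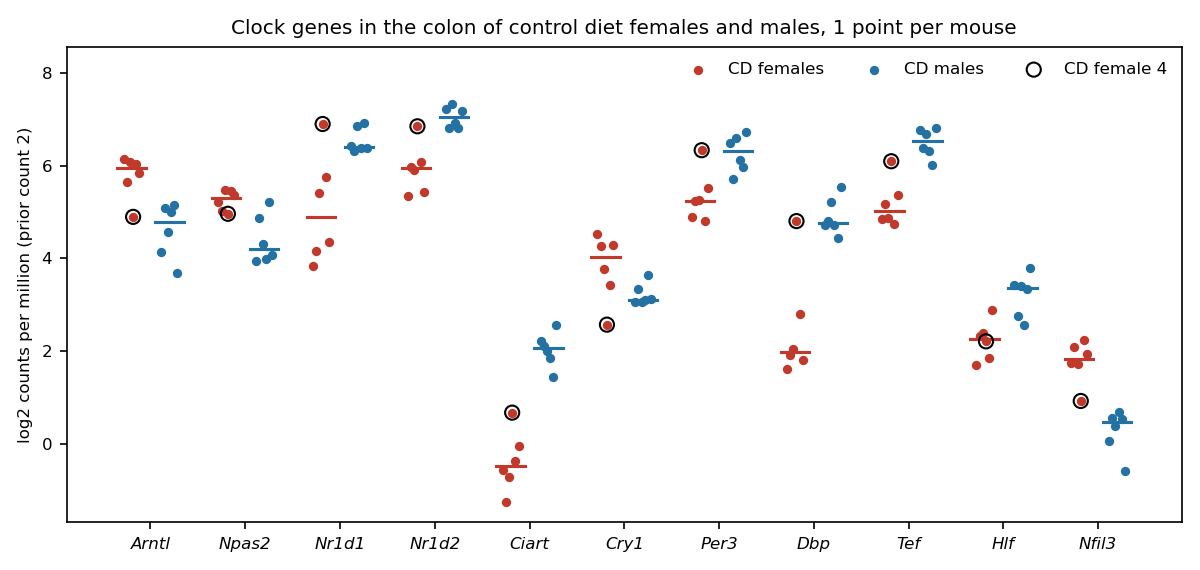
Levels of 11 clock genes (x axis) as log2 CPM with a prior count of 2 (y axis), 1 point per mouse, 6 CD females in red and 6 CD males in blue, with a line at the median. CD female 4 is ringed and lies among the males for Nr1d1, Dbp, Tef and Per3, whereas for Ciart all females lie below all males.

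None of the clock genes named was called on HFD. There the log2 fold changes of females against males were 0.73 for Arntl, 0.66 for Npas2, 0.63 for Nfil3, -0.37 for Nr1d2, -0.78 for Ciart, -0.44 for Tef and -0.34 for Hlf, each with an adjusted p of 0.872. The direction of these 7 was that on CD. Of the 4 that were called on CD without CD female 4 alone, Dbp (-0.43) and Per3 (-0.29) had the direction of CD on HFD, while Nr1d1 (0.28, adjusted p = 0.892) and Cry1 (-0.25, adjusted p = 0.878) had the opposite one. The interaction of sex and diet did not pass the threshold for any of them. It was 1.83 for Ciart (adjusted p = 0.397) and 0.81 for Tef (adjusted p = 0.63). The vehicle males of the E2 comparison are the HFD males above, so its values and the HFD sex differences are not independent. E2 in HFD males, against vehicle, called none of these 11 genes. Its log2 fold changes were 1.14 for Arntl (adjusted p = 0.454), 0.86 for Npas2, 0.01 for Nfil3, -0.34 for Nr1d2, -1.11 for Ciart (adjusted p = 0.461), -0.47 for Tef and -0.20 for Hlf, and -0.27 for Dbp, -0.39 for Per3, 0.20 for Nr1d1 and -0.26 for Cry1.

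The genes of hormone action split into receptors without a measured difference and a few single genes with a large one. None of 6 steroid hormone receptor genes tested was called, and their median log2 fold change was -0.01. Esr1, encoding estrogen receptor alpha, ranged from 1.47 to 3.24 TPM (median 2.20) in females and from 1.70 to 3.02 TPM (median 2.85) in males, a log2 fold change of -0.11 (SE 0.15, adjusted p = 0.809). Esr2, encoding estrogen receptor beta, ranged from 0.701 to 1.49 TPM (median 1.26) in females and from 0.916 to 2.10 TPM (median 1.04) in males, a log2 fold change of 0.13 (SE 0.19, adjusted p = 0.824). The ranges of the sexes overlapped in both genes. Gper1, the membrane receptor, was near the limit of detection, with 9 to 14 counts per female and 5 to 14 per male, and had a log2 fold change of 0.57 (adjusted p = 0.359). The receptors of gluco- and mineralocorticoids were far more abundant. Nr3c1 had medians of 32.1 and 34.8 TPM and Nr3c2 of 48.4 and 50.9 TPM, with log2 fold changes of -0.04 and -0.05. Pgrmc2, a membrane-bound progesterone receptor component, had a log2 fold change of 0.03. Pgr, the nuclear progesterone receptor, had 2 to 13 counts per female and 3 to 11 per male, too few for the model (exact permutation p = 0.545).

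Of 25 genes of steroid metabolism tested, 1 was higher and 1 lower, with a median log2 fold change of 0.00. The lower gene was Sult1e1. The higher was Hsd3b3, a hydroxysteroid dehydrogenase, at 9.46 to 14.1 TPM (median 11.2) in females and 5.99 to 12.7 TPM (median 7.05) in males, a log2 fold change of 0.63 (SE 0.13, adjusted p = 0.0127). It belongs to a family of near-identical genes and overlaps Zfp697 on the other strand, so the share of reads that is its own is uncertain. Among 15 genes commonly induced by estrogens, 1 was higher and 3 were lower, with a median of -0.01, beside 0.637% and 2.05% of all genes tested. The higher was Egf, the gene of epidermal growth factor, with a log2 fold change of 0.56 (adjusted p = 0.0401). The lower ones were Igf1, Ccnd1 (cyclin D1) and Stc2 (a stanniocalcin), the last with a log2 fold change of -0.85 (adjusted p = 0.039). With the smooth muscle score as a covariate, 1 gene of this list was called higher and 0 lower, and with the B cell score 0 in either direction. None of 13 androgen- and glucocorticoid-responsive genes and none of 7 peptide hormone receptor genes tested was called. Ghr, the growth hormone receptor, had a log2 fold change of -0.14 (adjusted p = 0.539).

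The growth hormone and IGF axis had 3 lower genes and no higher gene of 15 tested, with a median log2 fold change of -0.28. Over all autosomal genes tested, 2.05% were called lower and 0.637% higher. With the smooth muscle score as a covariate 1 gene of this list was called lower (median -0.10), and with the B cell score 1 (median -0.04). Igfbp5, an IGF binding protein of fibroblasts and smooth muscle, ranged from 14.9 to 21.9 TPM (median 16.6) in females and from 32.7 to 43.5 TPM (median 40.1) in males. Every female lay well under every male. Its log2 fold change was -1.07 (SE 0.12, adjusted p = 0.000127) on CD and -0.12 (SE 0.12, adjusted p = 0.888) on HFD. The interaction of 0.95 (SE 0.17) had the smallest adjusted p of all autosomal genes, 0.104, and so did not pass. Igf1, the growth factor itself, was at 1.56 to 2.68 TPM (median 1.76) in females and 2.40 to 5.27 TPM (median 3.83) in males, with a log2 fold change of -0.69 (adjusted p = 0.0081). Igfbp2 ranged from 2.31 to 4.88 TPM in females and from 5.94 to 20.9 TPM in males, a log2 fold change of -1.49 (SE 0.35, adjusted p = 0.0344).

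**Figure D3:**
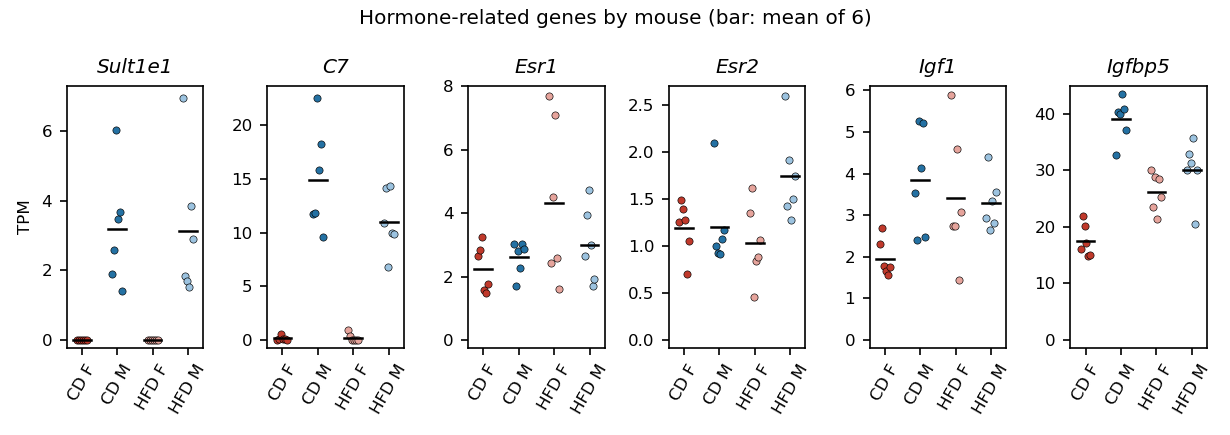
TPM (y axis) of Sult1e1, the complement gene C7, Esr1, Esr2, Igf1 and Igfbp5 in CD females, CD males, HFD females and HFD males (x axis), 1 point per mouse with a bar at the mean, n = 6 per group. Sult1e1 is at 0 in all 12 females and C7 is under 1 TPM in them, Esr1 and Esr2 overlap between the sexes on CD, and Igfbp5 is apart on CD and overlaps on HFD.

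Genes of the extracellular matrix were lower in CD females wherever they were called. Of 19 collagen genes tested, 8 were lower in CD females and none was higher (background 2.05% and 0.637%), the median log2 fold change was -0.54, and all 19 had a value under 0. The collagens summed to 272 to 403 TPM in females and to 439 to 613 TPM in males, without overlap. Col3a1, the most abundant, a fibrillar collagen of the submucosa, ranged from 89.2 to 144 TPM (median 117) in females and from 150 to 216 TPM (median 205) in males, a log2 fold change of -0.63 (SE 0.10, adjusted p = 0.00282). A gene on the same strand, Gm47302, overlaps it. Col1a2 (-0.61), Col5a2 (-0.54), Col6a3 (-0.72) and Col18a1 (-0.77) fell by similar amounts. Col6a5 fell most, by 1.56 on the log2 scale (SE 0.25, adjusted p = 0.00383), at a low level of 0.0248 to 0.133 TPM in females and 0.189 to 0.377 TPM in males.

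Of 30 matrix glycoproteins and proteoglycans tested, 9 were lower and none was higher (background 2.05% and 0.637%), with a median of -0.39. Nid1 (nidogen, a linker of basement membranes) ranged from 9.38 to 17.0 TPM (median 13.8) in females and from 18.1 to 27.8 TPM (median 24.4) in males, a log2 fold change of -0.72 (SE 0.10, adjusted p = 0.00106). Sparc, a collagen-binding glycoprotein, ranged from 40.6 to 65.5 TPM (median 56.9) in females and from 72.0 to 116 TPM (median 99.4) in males, a log2 fold change of -0.67 (SE 0.10, adjusted p = 0.0019). The sexes did not overlap in these genes. Fbln2 (-0.80), Thbs2 (-0.80), Lamc1 (-0.67) and Lama4 (-0.50), which encode a fibulin, a thrombospondin and laminin chains, were also lower. Of 28 matrix proteases, crosslinking enzymes and inhibitors, 7 were lower and none was higher. Lox, the lysyl oxidase that crosslinks collagen and elastin, ranged from 0.776 to 1.64 TPM (median 1.44) in females and from 2.50 to 5.01 TPM (median 3.48) in males, a log2 fold change of -1.18 (SE 0.15, adjusted p = 0.000439). Its relatives Loxl2 (-0.82) and Loxl4 (-0.90), the inhibitor Timp2 (-0.58) and the proteases Adamts2 (-0.55) and Adamts5 (-0.70) were lower too. Adamts5 was also lower in females on HFD, with a log2 fold change of -0.74 (adjusted p = 0.0283).

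Signals that stromal cells send to the crypt differed in single genes. Over all autosomal genes tested, 2.05% were called lower and 0.637% higher. Grem1, the BMP antagonist that cells beneath the crypt base secrete, ranged from 12.8 to 22.1 TPM (median 16.8) in females and from 30.2 to 40.4 TPM (median 32.6) in males. There was a clear gap between the sexes, and the log2 fold change was -0.87 (SE 0.10, adjusted p = 0.000154). The procollagen protease Bmp1 was lower at the edge of the threshold, with a log2 fold change of -0.52 and an adjusted p of 0.0496. Among 12 BMP ligands and antagonists tested, 3 were lower, Grem1 and Bmp1 among them, and none was higher, with a median of -0.52. Of 12 stromal Wnt ligands, R-spondins and Wnt inhibitors, 1 was lower and 1 higher. Rspo3, an amplifier of Wnt signals to stem cells, ranged from 2.48 to 4.66 TPM (median 3.54) in females and from 4.44 to 7.71 TPM (median 6.22) in males, a log2 fold change of -0.68 (SE 0.16, adjusted p = 0.0306). The Wnt inhibitor Sfrp4 ran the other way, at 2.12 to 4.89 TPM (median 3.84) in females and 0.846 to 2.31 TPM (median 2.01) in males, a log2 fold change of 1.17 (SE 0.25, adjusted p = 0.0157). Of 10 hedgehog pathway genes, 3 were lower. These were the co-receptor Gas1 (-0.98, adjusted p = 0.000595) and the transcription factors Gli2 (-0.70) and Gli3 (-0.57). The median of the hedgehog list was -0.22. It was -0.07 with 0 called with the smooth muscle score as a covariate, and -0.06 with 1 called lower with the B cell score. In the crypt, the stem cell receptor Lgr5 had a log2 fold change of 0.53 (adjusted p = 0.0472), and Ccnd1 one of -0.43 (adjusted p = 0.0484). Ccnd1 overlaps LTO1 on the other strand. These were the only calls among 18 Wnt target and stem cell genes tested.

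All 18 smooth muscle genes had log2 fold changes under 0 in CD females, and 11 of them were called lower, with a median of -0.61, beside 2.05% of all genes called lower. Actg2, the gamma actin of enteric smooth muscle, ranged from 382 to 527 TPM (median 442) in females and from 668 to 1357 TPM (median 939) in males, a log2 fold change of -0.95 (SE 0.14, adjusted p = 0.00221). Tpm1 (-0.60), Csrp1 (-0.77), Synm (-0.58), Cald1 (-0.66) and Myl9 (-0.73), which encode tropomyosin, a LIM protein, synemin, caldesmon and a myosin light chain, were lower as well. Synm overlaps Ttc23 on the other strand. Of 15 fibroblast markers, Col1a2 and Col3a1, both already counted among the collagens, were lower, and the other 13 were not called. The list summed to 554 to 1214 TPM in females and to 1031 to 1526 TPM in males. In blood endothelium, 2 of 13 markers were lower. These were Flt1, a VEGF receptor (-0.84, adjusted p = 0.00686), and Cdh5, the cadherin of endothelial junctions (-0.63, adjusted p = 0.0286). Lyve1 of lymphatic endothelium (-0.58) and Kcnj8 and Notch3 of pericytes (-0.60 and -0.72) were lower. By contrast Kit, the receptor that marks interstitial cells of Cajal and mast cells, was higher, with a log2 fold change of 0.42 (adjusted p = 0.0404). Neither of the lists of enteric neurons (10 tested) and enteric glia (6 tested) held a called gene.

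With the smooth muscle score as a covariate, the median of the collagens was -0.24 with 1 gene called lower, that of the matrix glycoproteins was -0.11 with 0 called, and that of the BMP list was -0.13 with 1 called. Other medians grew in size, from -0.18 to -0.23 for the matrix proteases (1 called lower) and from -0.42 to -0.60 for blood endothelium (0 called). Grem1 (-0.75, adjusted p = 0.0263), Lox (-1.21, adjusted p = 0.0203), Igfbp5 (-0.60, adjusted p = 0.031) and Col6a5 (-1.70, adjusted p = 0.0481) were still called lower in that fit. Sfrp4 had a log2 fold change of 2.07 (adjusted p = 0.00646) and Lgr5 one of 0.93 (adjusted p = 0.0319). C7 (-4.13), Sult1e1 and Ciart (-2.97, adjusted p = 0.00367) were called as well. With the B cell score, the median of the collagens was -0.47 with 2 called lower and that of the matrix glycoproteins -0.25 with 1. For the BMP list it was -0.37 with 1 called lower, and for the smooth muscle genes -0.36 with 0 called.

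The 10 skeletal muscle markers summed to 9.23 to 22.5 TPM in females and to 17.1 to 137 TPM in males, with CD male 5 the highest, so that the sexes overlapped. Ckm, the most abundant, ranged from 6.49 to 16.5 TPM in females and from 12.8 to 39.2 TPM in males. None of the 3 that passed the filter was called (median -1.04). Their part in the results was not tested.

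**Figure D4:**
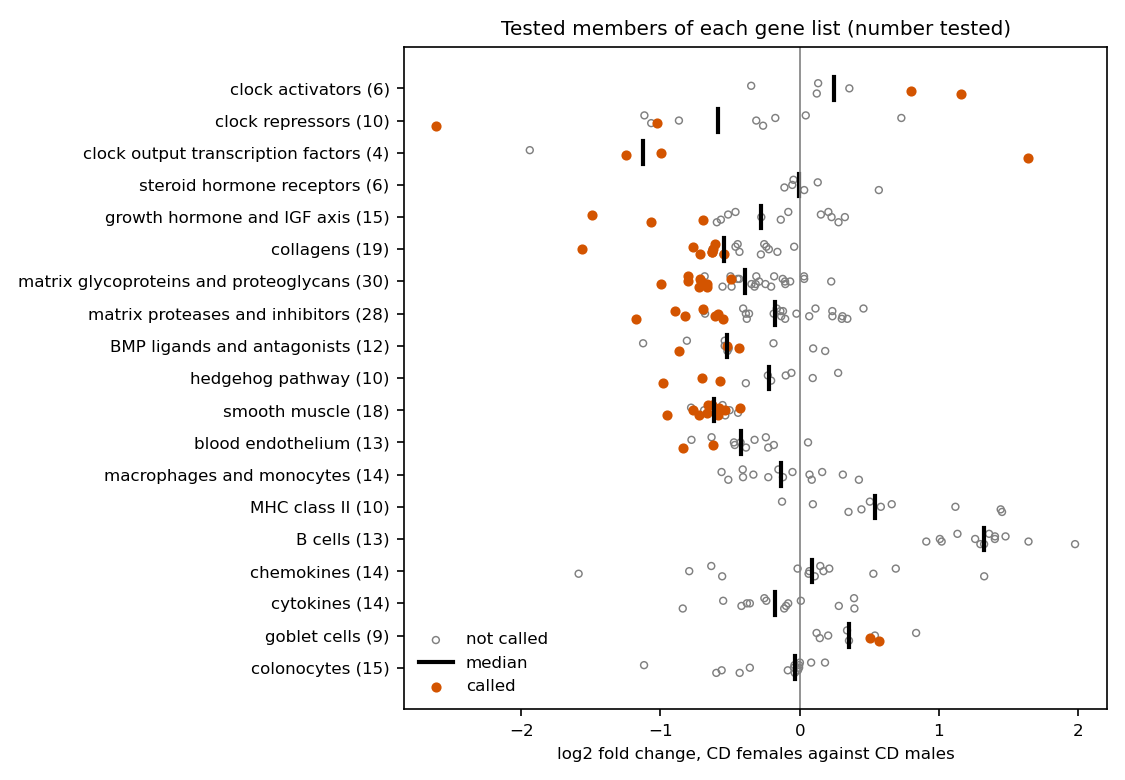
Log2 fold change of CD females against CD males (x axis) for the tested members of 19 lists (y axis, number tested in brackets), 1 point per gene, filled where the gene was called, with a bar at the list's median. Collagens and smooth muscle lie wholly below 0, and the B cell genes lie wholly above 0 with none called.

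Immune genes gave few calls, and the spread between mice was wide. The share called over all autosomal genes tested was 0.637% higher and 2.05% lower. All 13 B cell markers were above 0, with a median log2 fold change of 1.32, but none was called, and 6 passed at an unadjusted p under 0.05. Cr2, a complement receptor of B cells and follicular dendritic cells and the most abundant of them, ranged from 5.12 to 18.4 TPM (median 10.02) in females and from 0.0537 to 10.8 TPM (median 1.18) in males, a log2 fold change of 1.64 (SE 0.65, adjusted p = 0.242). CD male 1 gave the 10.8 TPM, and the other 5 males lay at or under 2.35 TPM. The antibody genes had a median of 1.05 over 9 tested with none called. Igkc, the kappa light chain, ranged from 31.0 to 195 TPM in females and from 26.6 to 154 TPM in males, a log2 fold change of 1.13 (SE 0.49, adjusted p = 0.302). Of 6 plasma cell markers, 1 was higher, Sdc1, which encodes syndecan 1 and is also made by epithelium, with a log2 fold change of 0.42 (SE 0.08, adjusted p = 0.00995). The 10 genes of MHC class II had a median of 0.54 with none called, and Cd74, their invariant chain, ranged from 72.1 to 141 TPM in females and from 66.5 to 161 TPM in males.

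The calls in these immune lists depended on CD male 1 and on the marker scores. Without CD male 1, 8 of the 13 B cell markers were called higher (median 2.45), among them Cr2 (2.46, adjusted p = 0.0454) and Cd79b (2.49, adjusted p = 0.0101), as were 4 of 9 antibody genes (median 1.63), 2 of 6 plasma cell markers (median 1.06) and 5 of 10 MHC class II genes (median 0.80). In that refit 616 autosomal genes were called, 181 of them higher, against 388 and 92 with all mice. CD male 1 stood out by its level of these same B cell markers, so the p-values without it depend on that choice. Il18 (0.60, adjusted p = 0.00455), the chemokine gene Ccl6 (0.88, adjusted p = 0.0452) and the skeletal muscle genes Ckm (-1.06, adjusted p = 0.0185) and Tnnt3 (-2.49, adjusted p = 0.0441) were also called then. With the smooth muscle score and all mice, the median was -0.33 for the B cell markers, -0.87 for the plasma cell markers, 0.03 for the antibody genes and -0.52 for MHC class II, of which 1 gene was called lower. With the B cell score, the median of MHC class II was -0.07.

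None of 14 macrophage and monocyte markers (median -0.14), 14 chemokines (median 0.09) and 14 cytokines (median -0.18) was called. Lyz2, lysozyme of macrophages, ranged from 48.5 to 124 TPM in females and from 49.7 to 128 TPM in males. Il18, an epithelial cytokine, had medians of 87.8 and 60.1 TPM and a log2 fold change of 0.39 (adjusted p = 0.261). Of 24 interferon response genes, 1 was lower, Irf7, the regulator of type I interferon, at 7.87 to 10.7 TPM (median 8.53) in females and 10.9 to 15.96 TPM (median 12.02) in males, a log2 fold change of -0.47 (SE 0.11, adjusted p = 0.0231). It overlaps the more abundant Phrf1 on the other strand. Of 19 complement genes tested, C7 alone was called. Of 10 antimicrobial genes, Saa1, an acute phase protein that the epithelium makes, was higher, with a log2 fold change of 0.54 (SE 0.14, adjusted p = 0.0466). As 2.05% of all genes tested were called lower and 0.637% higher, 1 call in such a list says little of the list. Neutrophil and eosinophil markers did not pass the filter, and 1 mast cell marker did (Cma1, -0.76, adjusted p = 0.169).

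For 84 list members with too few counts for the model, single genes were compared by a two-sided exact permutation test of log2 CPM, whose smallest p with 6 mice against 6 is 0.00216. None passed after adjustment over the 84. Il1b, the gene of interleukin 1 beta, had 5 to 16 counts per female and 0 to 7 per male (exact permutation p = 0.00216, adjusted 0.0727). Ccl7, a chemokine for monocytes, had 2 to 6 counts per female and 6 to 17 per male, with the same p-values. Among mast cell genes, Tpsb2 had 0 to 4 and 3 to 15 counts, and Cpa3 had 0 to 10 and 5 to 18 counts, each with an adjusted exact permutation p of 0.0727.

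**Figure D5:**
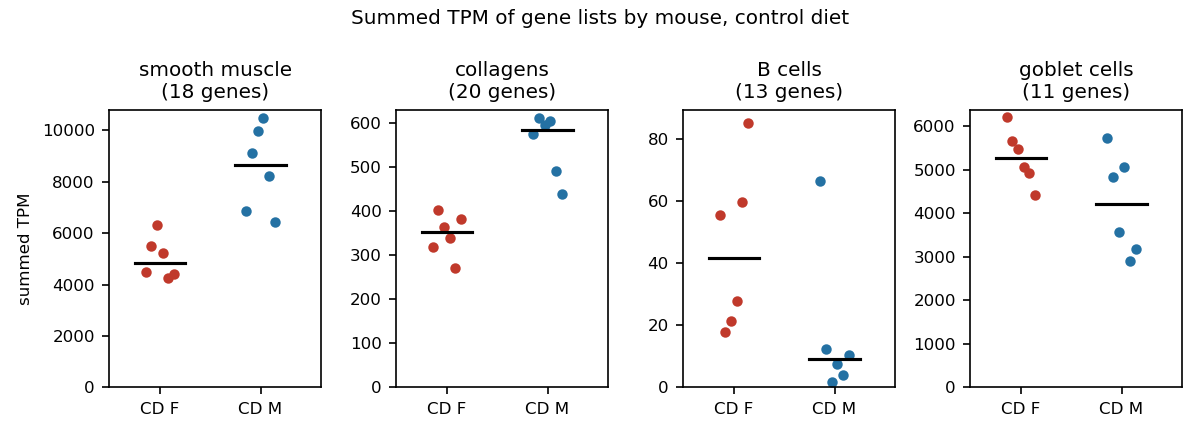
Summed TPM (y axis) of the autosomal genes of 4 lists in 6 CD females and 6 CD males (x axis), 1 point per mouse with a line at the median. Smooth muscle and collagens do not overlap between the sexes, and among the B cell genes CD male 1, at 66.5 TPM, lies with the females.

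Among the epithelial cell markers, calls were found in the goblet and enteroendocrine lists, beside 0.637% of all genes called higher. Of 9 goblet cell markers tested, 2 were higher in females and none was lower, and all 9 were above 0 (median 0.35). Muc2, the main mucin of colonic mucus, ranged from 1880 to 2713 TPM (median 2337) in females and from 1210 to 2195 TPM (median 1817) in males, a log2 fold change of 0.57 (SE 0.12, adjusted p = 0.019). Fcgbp, a partner of Muc2 in mucus, had a log2 fold change of 0.50 (adjusted p = 0.0398). Tph1 and Insl5 were the 2 called of 11 enteroendocrine markers, with none lower. None of these 4 genes was called with either marker score as a covariate. With the smooth muscle score the log2 fold change was 0.68 for Muc2 (adjusted p = 0.0674), 0.22 for Fcgbp (adjusted p = 0.524), 1.37 for Tph1 (adjusted p = 0.0853) and 1.03 for Insl5 (adjusted p = 0.101). With the B cell score it was 0.46, 0.31, 1.32 and 1.18 in the same order, with adjusted p-values of 0.295, 0.545, 0.105 and 0.0783. None of 15 colonocyte markers was called (median -0.04). Of 26 proliferation genes, none was called, although 25 were under 0 (median -0.31), and Mki67 ranged from 24.4 to 42.9 TPM in females and from 37.9 to 103 TPM in males.

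Of 17 tight junction genes tested, Cldn4 (1.43, adjusted p = 0.0363) and Marveld2 (0.42, adjusted p = 0.0326) were higher and none was lower. The share of all genes tested was 0.637% called higher and 2.05% called lower. Of 34 xenobiotic enzymes, Hao2 and the alcohol dehydrogenase Adh1 (0.45, adjusted p = 0.00615) were higher and the flavin monooxygenase Fmo2 was lower. Fmo2 ranged from 15.1 to 30.4 TPM (median 19.9) in females and from 30.8 to 47.0 TPM (median 33.7) in males, a log2 fold change of -0.63 (SE 0.13, adjusted p = 0.0153), and it was also lower on HFD (-0.66, adjusted p = 0.035). Among 30 genes of ion and water transport, Clca4a was lower, at 2.55 to 6.93 TPM (median 4.04) in females and 7.85 to 28.1 TPM (median 14.3) in males, a log2 fold change of -1.63 (SE 0.31, adjusted p = 0.011). This 1 call among 30 genes is near the share of all genes and says nothing of the list. Reads of Clca4a and its copy Clca4b may not be separable. None of 11 posterior Hox genes was called (median 0.05), and Hoxb13 and Hoxd13, whose levels depend on the position along the colon, had log2 fold changes of 0.06 and -0.23. No gene was called among the tested members of the lists of T and NK cells (4), dendritic cells (5), tuft cells (3), adipocytes (9), squamous epithelium (7), immediate early genes (15) and fatty acid oxidation and ketogenesis (23). Their median log2 fold changes ran from -0.01 for fatty acid oxidation and ketogenesis to 0.64 for T and NK cells.

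Few of these genes were called in the mice on HFD. Of 14691 autosomal genes tested there, 7 were called (0.0476%) in edgeR and 38 in DESeq2, and 448 passed at an unadjusted p under 0.05 with the fold change (3.05%). The genes called on both diets were C7, Sult1e1, Fmo2, Adamts5 and Ildr2, and all 5 were lower in females both times. Of the 388 CD genes, 383 were tested on HFD, and 307 had the same direction there, 80 of 90 higher and 227 of 293 lower ones, beside 7772 of all 14305 genes tested on both diets. The size was smaller, with a median of 0.67 on CD and of 0.17 on HFD in the direction of CD. Only 42 passed on HFD at an unadjusted p under 0.05 with the fold change. The CD genes were selected on their CD value, so a smaller value in other mice says nothing of the diets by itself. The interaction of sex and diet was called for 0 of 15287 genes (0.0%) in edgeR, while 1037 had an unadjusted p under 0.05, 795 of them with the fold change (5.2%), and DESeq2 called 3.

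Estradiol in HFD males was compared in libraries that the CD comparison does not use. It changed 1 of 14527 autosomal genes (0.00688%) in edgeR and 51 in DESeq2, and 838 passed at an unadjusted p under 0.05 with the fold change (5.77%). Of the genes higher in CD females, 75 of 91 tested had a value above 0 with E2. Of those lower, 149 of 296 had a value under 0. Over all 14269 genes tested in both comparisons, 7267 had a value above 0 with E2 and 7002 one under 0. In total, 40 of the 388 passed at an unadjusted p under 0.05 with the fold change with E2. The 2 genes that set the sexes apart most were not called. Sult1e1 had a median of 0.833 TPM with E2 and 2.37 TPM with vehicle (adjusted p = 0.506), and C7 had medians of 6.32 and 10.4 TPM (adjusted p = 0.455). In each E2-treated male both genes were above 0.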

How the data were processed

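RNA was sequenced from the colon of 30 mice, and the 12 CD libraries are the subject here. The authors trimmed the reads (Trim Galore), mapped them to GRCm38 with STAR and deposited whole-number counts per gene from featureCounts, without normalization. They also deposited TPM values made with StringTie, which scale by gene length and were used here for levels. Genes with several TPM lines (21) were summed. Versions of these tools are not given in the sources used here, apart from bcl2fastq 2.19.1.403, which the submitters' processing notes name.

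The raw counts of the 12 libraries were fitted in R 4.3.3 with edgeR 4.0.16 (filterByExpr, TMM, robust quasi-likelihood fit and F test). All chromosomes entered the fit and the Benjamini-Hochberg adjustment, and the autosomal genes (1 to 19) are reported. DEGs had an adjusted p under 0.05 and a log2 fold change over 0.4. The HFD and E2 comparisons were fitted in the same way, and the interaction on 24 libraries. Standard errors follow from the F statistic. Overlap of the sexes was judged on log2 CPM with a prior count of 2. List members with at least 10 counts in a library that failed the filter were compared by an exact permutation test.

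The genes named are the 12 largest increases and decreases among DEGs with at least 1 TPM in either sex and no overlap, up to 6 DEGs by smallest p from each list (or its most abundant members), and all core clock and steroid receptor genes. Some genes that the rule chose are counted but not reported here. The members and lists were chosen with earlier results of these data known. The authors' labels do not say that animals came from separate litters or cages, so p-values measure the spread between these mice. The floor for a gene at 0 is 3 counts over the group and, like the counts, covers counting error only, since the reads carry no molecular identifiers. Promoters are those of RefSeq (GRCm38.p6), and bases in exons of GENCODE are not shown.

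Alternatives were DESeq2 1.42.0 and its size factors, upper quartile scaling, autosomes only, other filters and sample sets, the replicate number as a block, marker scores as covariates, each library left out in turn, and limma 3.58.1 on log2 TPM with 1 or 0.1 added.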

Additional observations from a re-analysis of the deposited data

Results flagged for a closer look

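In the 6 mice of a sex, the highest or lowest mouse lay far from the next for 14 of the 225 values examined, measured as the gap to its neighbor divided by the range of the group (above Dixon's 95% critical value for 6 mice). Chance flags about 1 in 20 such groups. Among the clock genes these were Dbp, where CD female 4 was highest (0.626), and Bhlhe40, where CD female 1 was lowest (0.737). Of the summed lists, the B cell genes were flagged for CD male 1, the highest male (0.836), and the skeletal muscle genes for CD male 5, the highest male (0.664). Among the largest differences, 9130204K15Rik was highest in CD male 1 (0.81) and Gm10522 lowest in CD male 2 (0.771). Stromal genes with a low mouse were Lox in CD female 5 (0.725), Notch3 in CD female 5 (0.716), Bmp1 in CD female 1 (0.748), Gas1 in CD female 4 (0.73), Loxl2 in CD male 6 (0.643) and Adamts2 in CD male 6 (0.635). Col5a2 was highest in CD female 6 (0.691), and Lgr5 was lowest in CD male 1 (0.636).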

How the results depend on the processing

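Against 388 DEGs (92 higher, 296 lower), DESeq2 called 632 (172 and 460), the smooth muscle score as a covariate left 196 (113 and 83) and the B cell score 30 (7 and 23). With 1 library left out the number ran from 217 to 616. The 1312 genes at the unadjusted threshold became 2160 without a filter on low counts, 2228 with the smooth muscle score (1177 higher), 823 with the B cell score and 2130 without a fold change minimum, and ran from 1177 to 1617 with 1 library left out. Apart from the block below, the remaining settings stayed within 1.5 times. The cause of these shifts was not tested. DESeq2 called 3 genes in the interaction, 38 on HFD (7 in edgeR) and 51 with E2 (1 in edgeR). On CD, the split between higher and lower DEGs moved by over 10 percentage points with the smooth muscle score alone. With DESeq2 it was 19 higher and 19 lower on HFD, against 1 and 6 in edgeR, and 17 higher and 34 lower with E2, against 1 and 0.

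The labels do not say what the numbers of the mice mark. The correlation of deviations between same-numbered mice was over 0.1 in 5 of 6 pairs and -0.14 in the other, and 4 of 6 females correlated best with their own number. As not every pair passed 0.1, the numbers were not taken to pair the sexes, and whether they do was not settled. The replicate block gave 718 DEGs (209 higher, 509 lower), 381 of them among the 388, and 1 gene in the interaction, Igfbp5. Among the genes named, Arntl (adjusted p = 0.106), Nr1d2 (adjusted p = 0.0686), Slc10a2 (adjusted p = 0.0652) and Cldn4 (adjusted p = 0.0906) were not called with the block, while Ccl6, Il18, H2-Aa and Ckm gained a call.

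Of the 85 DEGs chosen by the rule for named genes, DESeq2 kept 85, the smooth muscle score 15, the B cell score 16, and limma on log2 TPM 41 with 1 added and 19 with 0.1 added. Of the 85, 6 belong to the list that makes up the smooth muscle score, and none of these 6 is among the 15. With that score, Myl9, one of the 6, had a log2 fold change of 0.0316, and the uncalled Tfrc and H2-Aa turned to -0.73 (adjusted p = 0.0278) and -0.63 (adjusted p = 0.0468). Depth limits genes with few counts, such as Pgr (2 to 13 per library), which did not pass the filter.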

Other observations

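The DEGs given here were chosen after their values were seen and belong to no list. Gp2, a glycoprotein of M cells that takes up bacteria, had a log2 fold change of 3.64 (SE 0.87, adjusted p = 0.0404). The 6 females averaged 2.16 TPM (SD 1.56) and the 6 males 0.155 TPM (SD 0.379). In males the SD was above the mean, so that mean rested on few mice. Ffar4, a receptor of long-chain fatty acids on enteroendocrine cells, had one of 0.83. Ddc, which makes serotonin from the product of Tph1, was also higher (0.50), as was Lifr, the receptor of leukemia inhibitory factor (0.73). Among enzymes of mucin and lipid synthesis, Gcnt3 (0.51) and Elovl6 (0.65) were higher in CD females.

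Others of these DEGs were lower in CD females. Vim, the intermediate filament of mesenchymal cells, had a log2 fold change of -0.47, Tnxb, a tenascin, one of -0.64, and Cdh13, a cadherin of vessels and muscle, one of -1.14 (SE 0.15, adjusted p = 0.000662). The growth factor Fgf2 (-0.67) and its receptor Fgfr1 (-0.64) were both lower. Chrm2, a muscarinic receptor of smooth muscle, fell to a log2 fold change of -0.73, and Isl1, a transcription factor, to -1.19. Id4, an inhibitor of helix-loop-helix factors, had one of -1.12.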
